A study of Mus musculus with 12 samples.

Results

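The transcripts described here are those of the mitochondrial genome: all rows of the deposited count table that lie on chromosome MT, 37 of 49671 genes. They comprise 13 protein-coding genes, 2 ribosomal RNA (rRNA) genes and 22 transfer RNA (tRNA) genes. The labels give the source as mouse embryos pooled at embryonic day 9.5, which the cell markers given further on do not bear out. Each of 4 labelled genotypes had 3 libraries: wild type, a knockout (KO) of Lyl1, a KO of Scl, and a double KO. Lyl1 and Scl (gene symbol Tal1) are paralogous transcription factors known from early blood development, and the title of the series concerns primitive red cell formation. The sources used here do not give the strain, the alleles or how many embryos were pooled. The labels call the replicates biological without saying what separates them, and the spread on which all p-values rest may be partly technical.

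The mammalian mitochondrial genome is a small circle that is transcribed from both strands into long precursor RNAs. Most protein-coding genes and both rRNA genes are separated by tRNA genes, and excision of the tRNAs releases the mRNAs and rRNAs between them. The mRNAs encode core subunits of complexes I, III, IV and V of the respiratory chain, and the rRNAs form the mitochondrial ribosome that translates them. All other subunits, the RNA polymerase and the RNA-processing enzymes are encoded in the nucleus. Most mitochondrial mRNAs carry a short poly(A) tail, and mature tRNAs lack one. The kit named in the labels selects polyadenylated RNA, so a count below is of RNA captured that way. How far rRNAs and mRNAs differ in this capture was not tested.

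A block of the mitochondrial genome could hardly be counted in these libraries. The 6 protein-coding genes mt-Co2, mt-Atp8, mt-Atp6, mt-Co3, mt-Nd3 and mt-Nd4l and 5 tRNA genes lie wholly between positions 6390 and 11042 of chromosome MT (GRCm38). Together they received 4 counts over the 12 libraries, 3 for mt-Co3 and 1 for mt-Atp6. The annotation places 7 pseudogenes on chromosome 1, on the minus strand between 24611535 and 24616197, and each was matched to 1 mitochondrial gene. Over 4140 aligned bases the pseudogene and mitochondrial transcripts differed at 2 positions, an identity of 99.95%. mt-Atp8, which shares 43 bases with mt-Atp6, and the 5 tRNA genes have no annotated copy among these pseudogenes. They matched no nuclear transcript over at least 50 bases at 95% identity. The chromosome 1 bases between the pseudogenes were not compared. Per the file header, the counting command did not switch on reads that map to several places. The 7 pseudogenes themselves received 52 counts in all, of which Gm29216, the copy of the 3′ part of mt-Co1, had 34. A count of 0 for these genes is therefore a count of uniquely placed reads and no measure of their RNA. The part that multiple mapping had in these zeros was not tested, since the reads were not used here.

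The following pairs show how closely the copy follows the mitochondrial genes, with a differing base in capitals. The first is the start of the copied part of mt-Co1 (chromosome MT, 6390 to 6539, plus strand) against Gm29216 (chromosome 1, 24616039 to 24616188, minus strand). The difference is A1066T, counted from 1 at the 5′ end of mt-Co1.
mt-Co1: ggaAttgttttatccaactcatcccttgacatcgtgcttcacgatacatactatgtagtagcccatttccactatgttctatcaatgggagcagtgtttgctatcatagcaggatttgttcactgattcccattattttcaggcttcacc
Gm29216: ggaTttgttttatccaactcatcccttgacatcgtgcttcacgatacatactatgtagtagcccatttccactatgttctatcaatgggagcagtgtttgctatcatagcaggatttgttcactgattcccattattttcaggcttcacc
The second is the start of mt-Co3 (chromosome MT, 8607 to 8756, plus strand) against Gm28437 (chromosome 1, 24613822 to 24613971, minus strand), which are identical over these 150 bases and over all 783 aligned bases.
mt-Co3: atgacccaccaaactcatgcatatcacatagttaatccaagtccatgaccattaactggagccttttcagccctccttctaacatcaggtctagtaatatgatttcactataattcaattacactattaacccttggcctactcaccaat
Gm28437: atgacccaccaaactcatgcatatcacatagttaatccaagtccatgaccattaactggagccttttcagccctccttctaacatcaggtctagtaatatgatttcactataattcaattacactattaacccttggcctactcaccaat
The third is the start of mt-Nd3 (chromosome MT, 9459 to 9608, plus strand) against Gm28438 (chromosome 1, 24612970 to 24613119, minus strand), with the difference T3C counted from the 5′ end of mt-Nd3.
mt-Nd3: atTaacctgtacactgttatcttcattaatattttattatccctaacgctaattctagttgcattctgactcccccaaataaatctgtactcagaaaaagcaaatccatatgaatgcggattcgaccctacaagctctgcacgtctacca
Gm28438: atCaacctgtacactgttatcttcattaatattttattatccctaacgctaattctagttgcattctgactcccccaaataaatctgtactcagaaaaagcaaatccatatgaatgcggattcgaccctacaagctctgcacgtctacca
After these differences the longest identical run was 479 bases for mt-Co1 and 342 bases for mt-Nd3. The copies of mt-Co2, mt-Atp6, mt-Nd4l and mt-Nd4 had no mismatch over 681, 678, 294 and 876 aligned bases.

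Of the 37 genes, 16 had no count in any of the 12 libraries, and 11 passed the filter on low counts and could be tested. The tested genes were 7 protein-coding genes (mt-Nd1, mt-Nd2, mt-Nd4, mt-Nd5, mt-Nd6, mt-Cytb and mt-Co1), both rRNA genes and the tRNA genes mt-Tw and mt-Tt. The 6 protein-coding genes that were not tested are those of the copied block, so complex V had no measured mitochondrial subunit. Protein-coding genes received 3414488 counts, rRNA genes 835932 and tRNA genes 1362, out of 4251782 on chromosome MT. The genes mt-Co1 and mt-Nd4 lie partly in the copied block, with 31.26% and 63.57% of their length. Their levels per length are given over the 1062 and 502 bases outside it. Other nuclear genes with at least 95% identity to a mitochondrial gene numbered 4, with 1064 counts in all. Among them, Gm13341 on chromosome 2, which matches mt-Co2 of the copied block at 95.906% identity, had 266 counts, where mt-Co2 had 0. Gm13340 on chromosome 2, which matches mt-Co1 over 1545 bases at 97.605% identity, had 759 counts against 1243909 for mt-Co1.

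**Figure D1:**
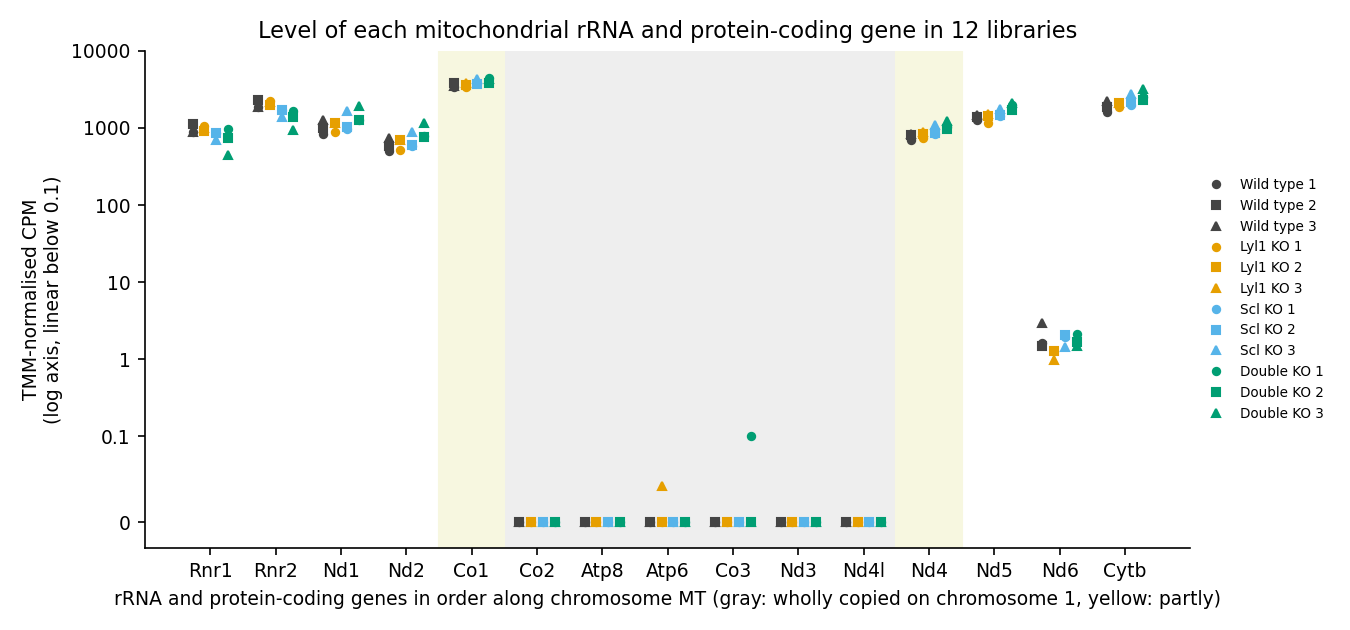
Level of the 2 rRNA and 13 protein-coding genes in TMM-normalised CPM (counts scaled to a common library size, vertical axis, log scale, linear below 0.1) in order along chromosome MT, with 1 point per library, colour for the group and shape for the replicate. The 6 genes in the gray band sit at or near 0 between the abundant genes mt-Co1 and mt-Nd4 (yellow, partly copied). By position they lie wholly within the span copied on chromosome 1, though mt-Atp8 has no annotated copy there. mt-Nd6, on the other strand, sits between 0.978 and 2.92.

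Levels per length take all counts of mt-Co1 and mt-Nd4 to come from outside the copied block, which was not tested. On that basis mt-Co1 was the most abundant mitochondrial transcript per length in 12 of 12 libraries. It encodes the catalytic subunit of complex IV (chromosome MT, 5328 to 6872). Its level was 3600 ± 313 CPM per kilobase outside the copy (mean ± SD over 12 libraries). CPM stands for TMM-scaled read counts set to a common library size, where the size rests on most genes rather than on the library total. mt-Cytb, the cytochrome b of complex III (14145 to 15288), followed at 1947 CPM per kilobase and ranked 2 in 11 libraries, and mt-Nd4 of complex I (10167 to 11544) at 1785, ranking 3 in 11 libraries. Over its full length mt-Nd4 would stand at 650 CPM per kilobase, below every other abundant gene given here. Over its full length mt-Co1 would stand at 2475 (2186 to 2849 over the 12 libraries), while mt-Cytb ranged from 1390 to 2772. The order of these genes thus rests on the bases taken as countable. mt-Nd1 (2751 to 3707), mt-Nd5 (11742 to 13565) and mt-Nd2 (3914 to 4951), further core subunits of complex I, stood at 1260.0, 855 and 682 CPM per kilobase. The rRNAs mt-Rnr2 (16S, 1094 to 2675) and mt-Rnr1 (12S, 70 to 1024) stood at 1116 and 907. mt-Nd6 (13552 to 14070), the complex I subunit that is the only protein-coding gene on the minus strand, was at 3.26 CPM per kilobase, with 553 counts in all. The level of mt-Co1 varied least over the 12 libraries (coefficient of variation 8.7%) and, among the abundant genes, that of mt-Nd1 most (26.3%).

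The tRNA genes received few counts, and 2 genes held most of what there was. Of the 22 tRNA genes, 12 had no count, mt-Tw had 715 and mt-Tt 484, together 88.03% of all tRNA counts. The other 8 genes with counts had between 3 and 57 each. The 14 tRNA genes on the plus strand had 1277 counts and the 8 on the minus strand 85. mt-Tw (tRNA for tryptophan, chromosome MT, 4950 to 5016) begins within the last 2 bases of mt-Nd2, and mt-Tt (tRNA for threonine, 15289 to 15355) begins on the base after mt-Cytb ends. Both sequences are shown because these genes hold most tRNA counts, and the capitals in mt-Tw mark the bases shared with mt-Nd2.
mt-Tw: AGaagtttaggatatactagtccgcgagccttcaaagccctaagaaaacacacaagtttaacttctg
mt-Tt: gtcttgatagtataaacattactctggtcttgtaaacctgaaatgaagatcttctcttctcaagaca
Whether these counts come from mature tRNAs or from RNA that runs on from the mRNA was not tested. mt-Ti, which overlaps the end of the more abundant mt-Nd1 by 2 bases, had 57 counts. mt-Tv and mt-Tl1, which flank mt-Rnr2 without a gap, had 0 and 5 counts. Reads that overlap several genes on the counted strand were not counted, and the room beside these genes differs. On the plus strand, mt-Tw is next followed by mt-Co1 at 5328, and mt-Ti by mt-Tm at 3845. mt-Tv and mt-Tl1 are followed by a gene without a gap. These counts therefore do not tell the sources apart.

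Of the targeted genes, Tal1 averaged 572 ± 65.5 CPM in wild type, 579 ± 39.0 in Lyl1 KO, 109 ± 13.9 in Scl KO and 92.8 ± 13 in the double KO. Lyl1 averaged 181 ± 28.5, 87.7 ± 2.46, 175 ± 49.96 and 84.1 ± 25.8 CPM in the same order. Reads of both genes thus remained in the libraries labelled as their KO, a large part of the wild-type level for Lyl1, and whether these transcripts are functional was not tested. The labelled tissue and the measured cell markers stood apart. In wild type, heart muscle markers summed to 1.44 ± 1.80 CPM and neural markers to 3.43 ± 1.10, with 2 of 4 and 1 of 4 genes at 0 in all libraries. The 6 primitive red cell markers summed to 63.8 ± 12.4 CPM in wild type, 225 ± 28.6 in Lyl1 KO, 82.7 ± 47.4 in Scl KO and 53.1 ± 36.2 in the double KO, and the embryonic globin Hbb-bh1 among them averaged 0.393 ± 0.165 CPM in wild type. The 10 megakaryocyte and platelet markers summed to 55560 ± 3750 CPM in wild type, 60360 ± 5010 in Lyl1 KO, 49330 ± 8050 in Scl KO and 22970 ± 7960 in the double KO, and the 6 macrophage markers to 4124 ± 1050, 5592 ± 1130, 3585 ± 485 and 2969 ± 220. The megakaryocyte and platelet sum ranged from 52460 to 59730 CPM in wild type and from 15650 to 31440 in the double KO, and 9 of the 10 genes were called lower there (edgeR quasi-likelihood test, adjusted p under 0.05), beside 18.1% of all tested genes. In bulk RNA, a change in the makeup of cells and a change in RNA per cell cannot be told apart, and the part of cell makeup in the mitochondrial values was not tested.

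Libraries numbered 3 stood apart in 3 of the 4 groups. The ratio of mt-Nd1 to mt-Co1 counts was 0.246, 0.264 and 0.365 in wild type, 0.264, 0.321 and 0.303 in Lyl1 KO, 0.257, 0.278 and 0.387 in Scl KO and 0.284, 0.331 and 0.456 in the double KO. In wild type, Scl KO and double KO the library numbered 3 was the highest. The nuclear-retained RNA Neat1 was at 387, 387 and 686 CPM in these 3 libraries against 903 to 2115 CPM in the other 6 of those groups. In Lyl1 KO it was at 318, 366 and 423 CPM. Malat1, another nuclear RNA, was at 541 to 859 CPM in the same 3 libraries, 785 to 1259.6 in the other 6 and 559 to 746 CPM in Lyl1 KO. What part this had in the mitochondrial values was not tested.

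Mitochondrial transcripts took 1.01%, 1.16% and 1.23% of all counts in wild type, and 1.00%, 1.16% and 1.22% in Lyl1 KO. They took 1.16%, 1.19% and 1.57% in Scl KO and 1.66%, 1.61% and 1.98% in the double KO. The 3 double KO libraries lay above the 9 others, Scl KO 3 came next, and wild type and Lyl1 KO covered the same range. The means were 1.131 ± 0.112% in wild type, 1.128 ± 0.112% in Lyl1 KO, 1.306 ± 0.225% in Scl KO and 1.751 ± 0.204% in the double KO (SD, n = 3). Counting error was small beside this spread, as the 95% Wilson interval in wild type 1 ran from 1.0043% to 1.0119%. The mean log2 difference in share between double KO and wild type was 0.63. On the TMM scale it was 0.22, because the effective size of the double KO libraries was 1.14 to 1.30 times their total and that of wild type 0.893 to 0.956 times. On that scale the double KO libraries overlapped those of Scl KO and Lyl1 KO, and the lowest of them was just above the highest wild-type library. The summed mitochondrial level was 14570, 12980 and 15230 CPM in the double KO, against 14510 in Scl KO 3, 13310 in Lyl1 KO 3 and 12970 in wild type 2. A share of all counts and a TMM level thus differ in what they compare with, and both are given below.

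**Figure D2:**
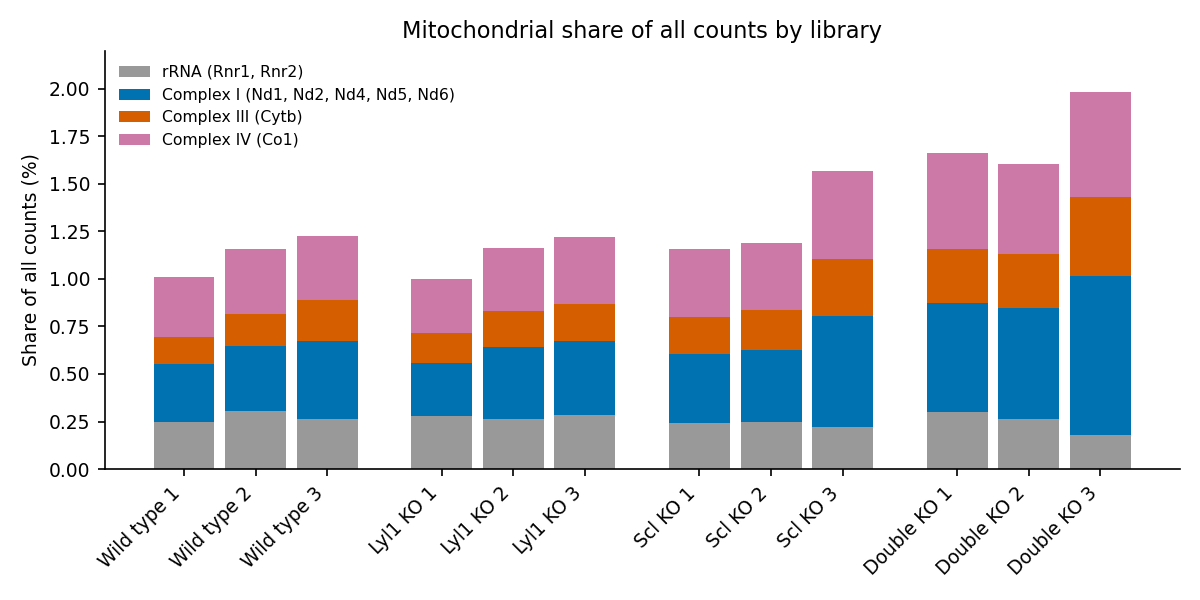
Share of all counts (%) taken by mitochondrial rRNAs, complex I mRNAs, mt-Cytb and mt-Co1 in each of the 12 libraries (stacked bars; tRNAs are too few to show). The total is between 1.61% and 1.98% in the double KO libraries and at most 1.57% in the others, while the rRNA segment is the smallest in double KO 3.

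The classes did not move together. Protein-coding transcripts took 0.858 ± 0.102% of all counts in wild type, 0.85 ± 0.113% in Lyl1 KO, 1.067 ± 0.238% in Scl KO and 1.503 ± 0.261% in the double KO. The rRNAs took 0.273 ± 0.0299%, 0.277 ± 0.0108%, 0.238 ± 0.013% and 0.246 ± 0.062% in the same order, with overlapping ranges. tRNA genes took at most 0.000736% in any library. The ratio of rRNA to protein-coding counts is free of the library scaling, but not of any difference in capture between these classes. It was 0.327, 0.360 and 0.274 in wild type and 0.388, 0.295 and 0.307 in Lyl1 KO. It was 0.266, 0.262 and 0.166 in Scl KO and 0.219, 0.195 and 0.0986 in the double KO. The Scl KO and double KO libraries all lay below the lowest wild-type library, and double KO 3 was lowest. The log2 difference of double KO against wild type was -0.98, and -0.62 without double KO 3. The share of rRNA among mitochondrial counts was 24.2 ± 2.5% in wild type, 24.74 ± 2.8% in Lyl1 KO, 18.7 ± 3.82% in Scl KO and 14.4 ± 4.8% in the double KO. In contrast, mt-Co1 kept 29.3 ± 1.84%, 28.5 ± 0.129%, 30.2 ± 0.956% and 29.2 ± 1.16% of mitochondrial counts.

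Among complex I subunits, mt-Nd4 and mt-Nd5, both in the proton-pumping arm of the complex, were higher in the double KO. mt-Nd5 stood at 1254, 1389.7 and 1457 CPM in wild type, 1149.6, 1442 and 1529.5 in Lyl1 KO, 1434, 1466 and 1765 in Scl KO, and 2009.7, 1693.5 and 2119.6 in the double KO. The double KO libraries all lay above wild type and Lyl1 KO, and only Scl KO 3 reached into their range. Against wild type the log2 change was 0.51 ± 0.15 (SE, edgeR quasi-likelihood test, adjusted p = 0.0209). mt-Nd4 stood at 707, 817 and 824 CPM in wild type, 735, 824 and 873 in Lyl1 KO, 829, 862 and 1078 in Scl KO, and 1013, 979 and 1213 in the double KO, and again only Scl KO 3 reached into the range of the double KO. Its log2 change in double KO against wild type was 0.45 ± 0.14 (adjusted p = 0.0271). Without wild type 1, wild type 2 or double KO 3 neither gene was called against wild type (adjusted p from 0.0538 to 0.116). Neither was called in the 6 libraries alone (0.0572 for mt-Nd5 and 0.0761 for mt-Nd4).

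mt-Nd2, another subunit of that arm, stood at 503, 587 and 730.3 CPM in wild type, 521, 695 and 688 in Lyl1 KO, 587, 597 and 895 in Scl KO, and 774, 769 and 1155 in the double KO. The double KO libraries lay above those of wild type and Lyl1 KO, but the log2 change against wild type of 0.57 ± 0.22 did not pass (adjusted p = 0.0663). mt-Nd1, which helps to form the quinone-binding site, stood at 844, 1010.3 and 1281 CPM in wild type, 892, 1168 and 1156 in Lyl1 KO, 981, 1028 and 1649 in Scl KO, and 1251, 1269.8 and 1943 in the double KO. Here the groups overlapped, and the log2 change of 0.51 ± 0.24 did not pass (adjusted p = 0.128). mt-Nd6 had 1.62, 1.48 and 2.92 CPM in the wild-type libraries against 2.14, 1.66 and 1.5 in the double KO, a log2 difference of -0.19 ± 0.32 (adjusted p = 0.682).

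In complex III, mt-Cytb stood at 1591, 1892 and 2263 CPM in wild type, 1863, 2104 and 2118 in Lyl1 KO, 2002, 2149 and 2786 in Scl KO, and 2490.2, 2304 and 3171 in the double KO. The lowest double KO library was just above the highest wild-type library, and the log2 change of 0.47 ± 0.18 did not pass (adjusted p = 0.0624). In complex IV, mt-Co1 stood at 3430.5, 3833 and 3511 CPM in wild type, 3377, 3636 and 3816 in Lyl1 KO, 3817, 3701 and 4262 in Scl KO, and 4401, 3835 and 4258 in the double KO. Wild type 2, the highest of its group, and double KO 2, the lowest of its group, nearly coincided, and the log2 change of 0.21 ± 0.13 did not pass (adjusted p = 0.214).

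**Figure D3:**
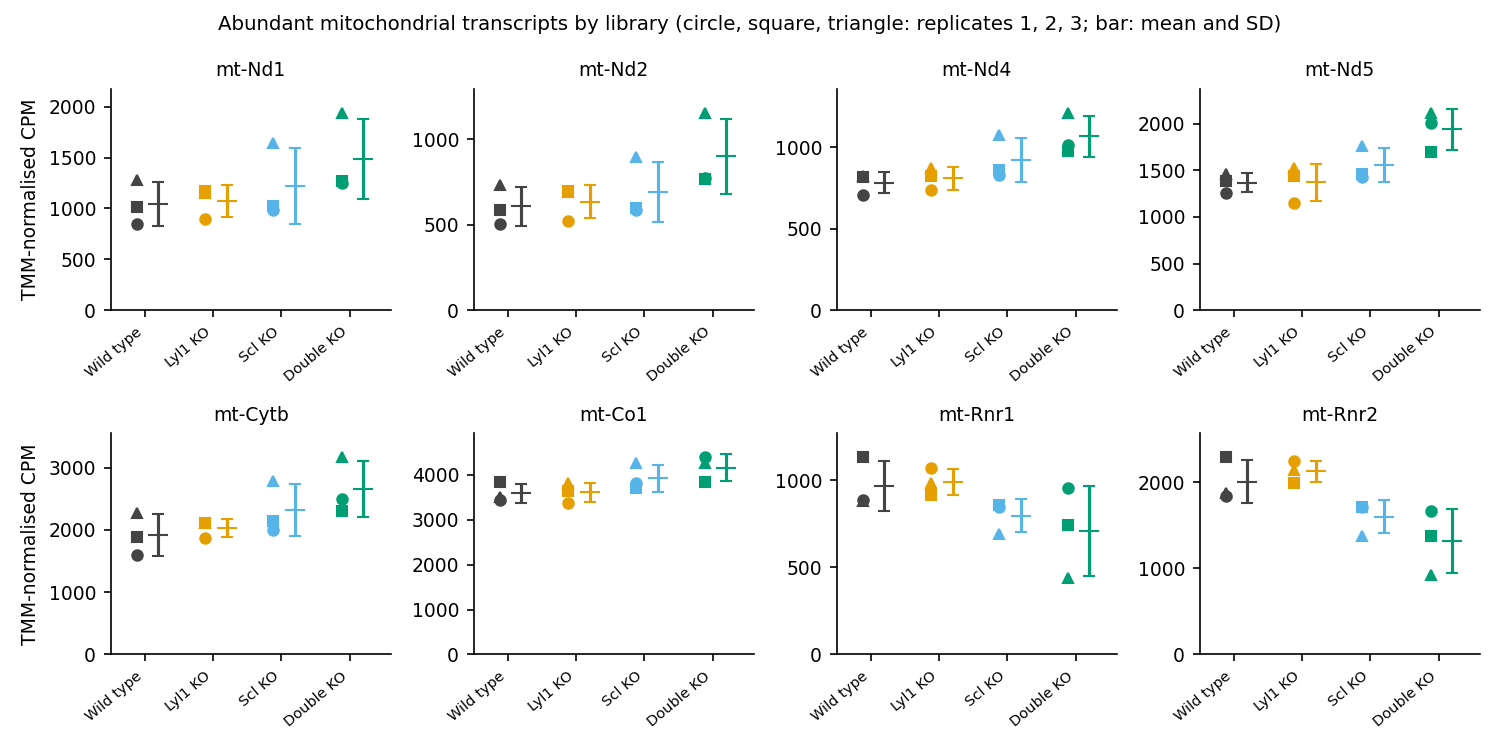
TMM-normalised CPM of the 8 abundant mitochondrial transcripts (1 panel each, axis from 0) by group, with 1 point per library (circle, square and triangle for replicates 1, 2 and 3) and the mean and SD of 3 beside them. The mRNAs are highest and the rRNAs lowest in the double KO, and double KO 3 (triangle) is the highest library for mt-Nd1 (1943) and the lowest for mt-Rnr2 (928).

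On the TMM scale both rRNAs had their lowest group means in the double KO, and the 16S rRNA passed the test. mt-Rnr2 stood at 1842, 2296 and 1882 CPM in wild type, 2244, 1999 and 2139 in Lyl1 KO, 1717, 1713 and 1379 in Scl KO, and 1666, 1379 and 928 in the double KO. The double KO libraries all lay below wild type and Lyl1 KO and overlapped those of Scl KO. The log2 change against wild type was -0.60 ± 0.20 (adjusted p = 0.0324). It was not called without wild type 2 (adjusted p = 0.124), double KO 2 (0.0614) or double KO 3 (0.0658), nor in the 6 libraries alone (0.0898). Scaled by library totals without TMM factors it was -0.20 (adjusted p = 0.273). mt-Rnr1, the 12S rRNA, stood at 885, 1134 and 881 CPM in wild type, 1069, 917 and 983 in Lyl1 KO, 849, 856 and 689 in Scl KO, and 954, 741 and 439 in the double KO. These ranges overlapped, and the log2 change of -0.44 ± 0.23 did not pass (adjusted p = 0.158). Scaled by library totals, mt-Rnr1 averaged 887 CPM in wild type and 879 in Lyl1 KO. It averaged 791 in Scl KO and 859 in the double KO. On that scale mt-Rnr2 averaged 1843, 1891, 1589 and 1605 in the same order. Scl KO, and not the double KO, thus had the lowest means there. Double KO 1 was then the highest library for mt-Rnr1 (1087.5) and double KO 3 the lowest (571). The ratio of mt-Rnr2 to mt-Rnr1 counts lay between 1.75 and 2.18 in the 12 libraries. It was 1.75, 1.86 and 2.11 in the double KO and from 2.00 to 2.18 in the other groups.

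Of the 11 tested mitochondrial genes, 2 were called higher and 1 lower in double KO against wild type. Over all 15399 genes tested, 16.4% were called higher and 18.1% lower in this comparison, so 3 of 11 is no larger a share than in the genome at large. The median log2 change of the 11 genes was 0.36 and that of all tested genes 0.04. The 7 tested protein-coding genes had a median of 0.47 and the 2 rRNAs of -0.52. With library totals in place of TMM factors the median of all genes moved by 0.41 in this comparison, 81% of calls were higher in place of 47.7% on the TMM scale, and 6 mitochondrial genes were called higher and 0 lower. The same change of scaling moved the median by 0.30 in double KO against Scl KO, 0.46 against Lyl1 KO, 0.35 in the interaction and 0.11 in Scl KO against wild type, and the higher share of calls became 79.4%, 83.5%, 78.5% and 62%. The direction given to single genes above is thus relative to the bulk of the tested genes.

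Against Lyl1 KO, the double KO had 3 mitochondrial genes called higher and 1 lower, beside 17.4% higher and 17.9% lower over all genes. mt-Nd5 rose by 0.50 ± 0.15 on the log2 scale (adjusted p = 0.0216), mt-Nd4 by 0.40 ± 0.14 (adjusted p = 0.0439) and mt-Tw by 0.87 ± 0.26 (adjusted p = 0.0226), and mt-Rnr2 fell by 0.68 ± 0.20 (adjusted p = 0.017). None of the 4 was called without Lyl1 KO 1 (adjusted p from 0.0545 to 0.177), and without double KO 3 only mt-Rnr2 was (adjusted p = 0.0308). mt-Nd4 was also lost without Lyl1 KO 2 (adjusted p = 0.111), Lyl1 KO 3 (0.0642) or double KO 2 (0.0519), and it was called in 7 of 16 alternatives in all. Among those it missed were DESeq2 size factors (0.0567), a minimum count of 5 (0.0528), no filter on low counts (0.06) and the 6 libraries alone (0.0798). mt-Nd5 was also lost without Lyl1 KO 2 (0.0515) and in the 6 libraries alone (0.0573). mt-Tw was also lost without Lyl1 KO 3 (0.0757), in the 6 libraries alone (0.0595) and with no filter on low counts (0.0665). With library totals mt-Rnr2 stood at -0.24 (adjusted p = 0.195). mt-Tw stood at 2.46, 2.79 and 2.41 CPM in wild type, 1.42, 1.66 and 1.36 in Lyl1 KO, 1.86, 1.71 and 2.41 in Scl KO, and 2.04, 2.59 and 3.46 in the double KO. The Lyl1 KO libraries lay below all others. mt-Tt averaged 1.18 ± 0.454 CPM in Lyl1 KO and 1.84 ± 0.243 in the double KO and did not pass (adjusted p = 0.178).

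Neither single KO had a mitochondrial gene past the threshold. In Lyl1 KO against wild type 0 of 11 were called by edgeR's test, where 0.039% of all genes were called higher and 0.0325% lower. At an unadjusted p under 0.05 were 2 of the 11, beside 1230 of all 15399 genes. These 2 were mt-Tw with a log2 change of -0.78 ± 0.26 (adjusted p = 0.509) and mt-Nd6 with -0.76 ± 0.33 (adjusted p = 0.579). mt-Nd6 was at 1.30, 1.28 and 0.978 CPM in Lyl1 KO, below the 3 wild-type libraries. The abundant genes differed little in the mean, with log2 values from 0.01 ± 0.13 for mt-Co1 and 0.01 ± 0.15 for mt-Nd5 to 0.08 ± 0.19 for mt-Rnr2. In Scl KO against wild type 0 of 11 were called, beside 2.29% higher and 2.73% lower over all genes. At an unadjusted p under 0.05 were 0 of the 11, beside 2767 of all 15399 genes. The values went from -0.33 ± 0.19 for mt-Rnr2 to 0.27 ± 0.18 for mt-Cytb among the abundant genes. DESeq2's Wald test and limma-voom also called 0 of 11 in both comparisons.

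**Figure D4:**
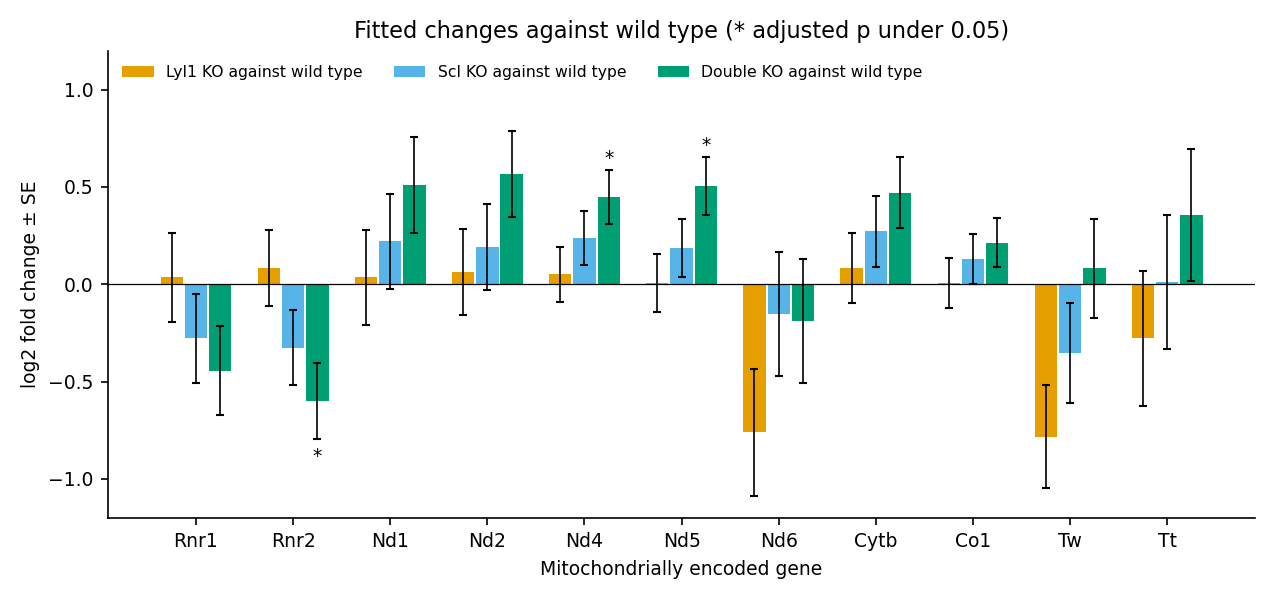
Fitted log2 fold change against wild type (bars) with its SE for the 11 tested mitochondrial genes in Lyl1 KO, Scl KO and double KO, with an asterisk where the adjusted p is under 0.05. Only mt-Rnr2, mt-Nd4 and mt-Nd5 in the double KO carry one, where mt-Nd5 stands at 0.51 and mt-Rnr2 at -0.60.

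In double KO against Scl KO, which asks for the effect of the Lyl1 KO on the Scl KO background, 0 of 11 mitochondrial genes were called and 0 had an unadjusted p under 0.05. Over all 15399 genes 8.37% were called higher and 10.8% lower, and 5001 genes had an unadjusted p under 0.05. The log2 differences ran from -0.28 ± 0.19 for mt-Rnr2 to 0.44 ± 0.26 for mt-Tw. Same-numbered libraries of these 2 groups deviated together, but so did the unlike-numbered libraries 1 and 2, so the number is not shown to mark pairs. With the replicate number as a block in edgeR's test 1 gene was called, mt-Nd2 with 0.38 (adjusted p = 0.0451). The difference between the effect of the Lyl1 KO on the Scl KO background and on the wild-type one, the interaction, was called for 0 of 11, beside 3.51% higher and 5.86% lower over all genes. The closest was mt-Tw, with 1.22 ± 0.37 (adjusted p = 0.0602). These comparisons share groups, and their values are not independent of each other.

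**Figure D5:**
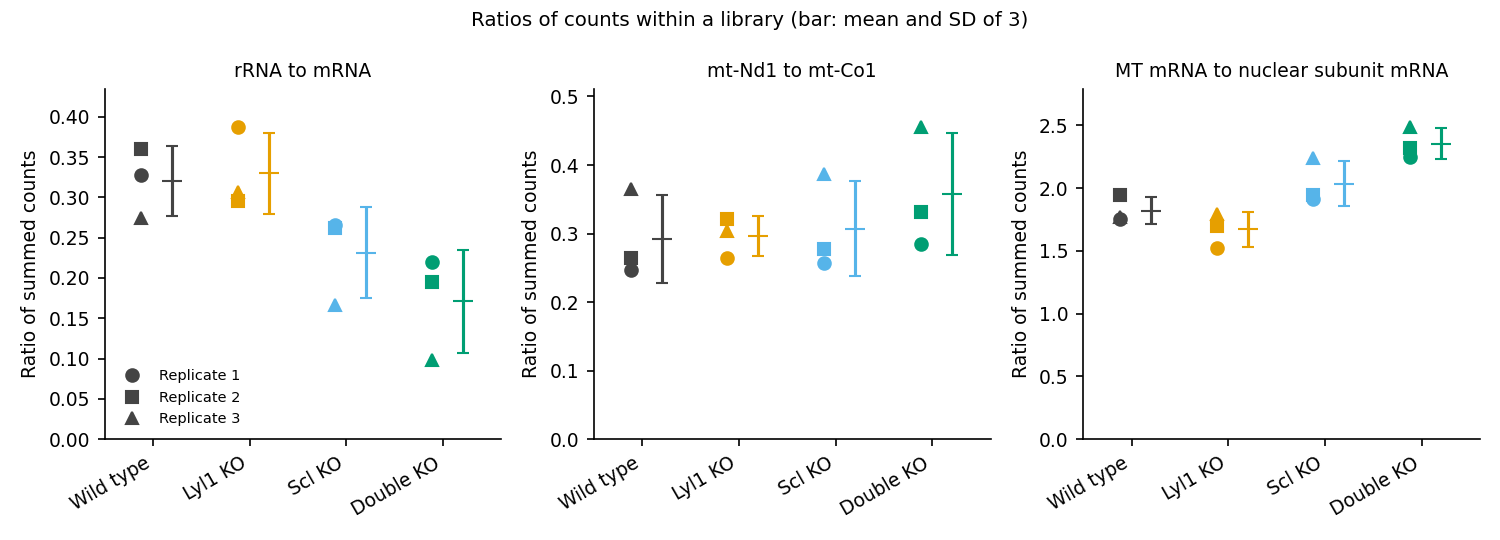
Ratios of summed counts within a library, which do not depend on the scaling, for rRNA to protein-coding mitochondrial counts (left), mt-Nd1 to mt-Co1 (middle) and mitochondrial mRNA to 71 nuclear-encoded subunits (right), with 1 point per library and the mean and SD of 3 per group. The left ratio falls to 0.0986 and the right one rises to 2.49 in double KO 3, and replicate 3 (triangles) is the highest for mt-Nd1 to mt-Co1 in wild type, Scl KO and double KO.

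Between double KO and wild type, the summed level of nuclear-encoded subunits of the same complexes differed less than that of the mitochondrial mRNAs. The 71 listed subunits of complexes I, III, IV and V summed to 5118 ± 497 CPM in wild type, 5701 ± 113 in Lyl1 KO, 5211 ± 296 in Scl KO and 5182 ± 456 in the double KO. The measured mitochondrial mRNAs summed to 9310 ± 890, 9530 ± 873, 10630 ± 1560 and 12220 ± 1520 CPM. The ratio of the 2 sums was 1.75, 1.94 and 1.77 in wild type, 1.52, 1.69 and 1.79 in Lyl1 KO, 1.91, 1.95 and 2.24 in Scl KO, and 2.25, 2.32 and 2.49 in the double KO. The double KO libraries lay above the 9 others, with Scl KO 3 almost at their lowest. In double KO against wild type 5 of the 71 were called higher and 5 lower, with a median log2 change of 0.07. Over all genes 16.4% were called higher and 18.1% lower, larger shares than in this list. Cox5a, a subunit of complex IV, fell by 0.68 ± 0.10 (adjusted p = 0.000231) and Ndufa4, associated with complex IV, by 0.52 ± 0.10 (adjusted p = 0.00152). Ndufs4, an accessory subunit of complex I, fell by 0.77 ± 0.10 (adjusted p = 9.7e-05). The 11 nuclear subunits of complex IV summed to 1114 ± 85.7 CPM in wild type and 929 ± 65 in the double KO, where mt-Co1 of the same complex averaged 3591 ± 213 and 4165 ± 294. The sums for the other complexes differed in the opposite direction, from 1353 ± 136 to 1383 ± 92.2 CPM for complex I, 505 ± 56.6 to 558 ± 56.5 for complex III and 2146 ± 222 to 2312 ± 273 for complex V, all within the SDs. With library totals in place of TMM factors 41 of the 71 were called higher and 2 lower, so the direction of this list depends on the scaling. The split also moved with single libraries: 2 higher and 6 lower without wild type 1, 2 and 4 without wild type 2, 11 and 3 without wild type 3, 4 and 6 without double KO 1, 3 and 3 without double KO 2, and 2 and 7 without double KO 3.

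Against Lyl1 KO, 2 of the 71 subunits were called higher and 17 lower in the double KO, beside 17.4% higher and 17.9% lower over all genes, with a median of -0.10 beside 0.06 for all genes. With library totals 30 of the 71 were called higher and 2 lower, beside 6944 and 1369 of all 15399 genes. Cox5a fell by 0.90 ± 0.10 (adjusted p = 2.9e-05), Ndufs4 by 0.75 ± 0.10 (adjusted p = 0.000104), Ndufa4 by 0.63 ± 0.10 (adjusted p = 0.000373) and Cox6b1, of complex IV, by 0.52 ± 0.11 (adjusted p = 0.00244). Against Scl KO, 0 were higher and 2 lower (8.37% and 10.8% over all genes), Ndufs4 (-0.64 ± 0.10, adjusted p = 0.00092) and Cox5a (-0.37 ± 0.10, adjusted p = 0.0187). With the replicate number as a block these counts were 1 and 3. They were 0 and 1 without Scl KO 1 or Scl KO 2, and 5 and 3 without Scl KO 3. In each single KO against wild type 0 of 71 were called. At an unadjusted p under 0.05 were 14 in Lyl1 KO and 4 in Scl KO. Over all 15399 genes these counts were 1230 and 2767. DESeq2's Wald test called 0 in Lyl1 KO and 1 in Scl KO.

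Of the genes for transcription, processing and maintenance of mitochondrial nucleic acids, 41 of 42 listed genes could be tested. In double KO against wild type 11 were called higher and 3 lower, with a median log2 change of 0.26, beside 16.4% higher and 18.1% lower over all genes. Tfam, which packages mitochondrial DNA and activates its transcription, stood at 14.8, 17.8 and 20.7 CPM in wild type, 14.1, 16.5 and 19.6 in Lyl1 KO, 18.5, 22.1 and 25.1 in Scl KO, and 33.5, 26.7 and 36.1 in the double KO. The double KO libraries lay above all others, and the log2 rise against wild type was 0.85 ± 0.18 (adjusted p = 0.003). Polrmt, the mitochondrial RNA polymerase, stood at 7.29, 6.58 and 10.1 CPM in wild type, 7.17, 7.65 and 9.15 in Lyl1 KO, 7.19, 7.81 and 10.4 in Scl KO, and 12.5, 12.6 and 13.5 in the double KO. It rose by 0.68 ± 0.19 (adjusted p = 0.0175), and again the double KO lay above all others. Rexo2, an exonuclease that degrades short RNA fragments in mitochondria, fell by 0.72 ± 0.10 (adjusted p = 0.000222). Mterf4, which takes part in mitochondrial ribosome assembly, rose by 0.56 ± 0.15 (adjusted p = 0.0132) and Ptcd3, a protein of the mitochondrial ribosome, by 0.69 ± 0.19 (adjusted p = 0.0148).

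Lrpprc and Slirp, partners that stabilise mitochondrial mRNAs, were not called. Lrpprc averaged 50.9 ± 7.10 CPM in wild type against 45.8 ± 6.59 in the double KO, a log2 difference of -0.15 ± 0.15 (adjusted p = 0.448). Slirp was at 12.3 ± 2.89 and 12.3 ± 1.198 CPM, a log2 difference of 0.00 ± 0.19 (adjusted p = 0.99). In each single KO against wild type 0 of 41 genes of this list were called by edgeR's test. At an unadjusted p under 0.05 were 0 in Lyl1 KO and 4 in Scl KO, beside 1230 and 2767 of all 15399 genes. DESeq2's Wald test called 0 in Lyl1 KO and 1 in Scl KO. The count in double KO against wild type depended on single libraries, with 3 higher and 1 lower without wild type 2, 3 and 3 without wild type 1, 5 and 3 without double KO 3, and 7 and 1 without double KO 2. With library totals it was 26 higher and 1 lower, beside 6530 and 1535 of all 15399 genes. Tfam and Rexo2 were called in all 16 alternatives run for this comparison, and Polrmt in 14.

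Against Lyl1 KO, 11 of 41 were higher and 5 lower in the double KO, beside 17.4% higher and 17.9% lower over all genes. Rexo2 fell by 0.87 ± 0.10 (adjusted p = 5.7e-05) and Ptcd2, which acts in mitochondrial RNA processing, by 0.34 ± 0.09 (adjusted p = 0.00962). Tfam rose by 0.94 ± 0.18 (adjusted p = 0.00152) and Fastkd1, of a family of mitochondrial RNA-binding proteins, by 0.92 ± 0.17 (adjusted p = 0.00132). With library totals Ptcd2 stood at 0.13 and the list had 29 higher and 1 lower. Without Lyl1 KO 1 it had 3 higher and 2 lower, without Lyl1 KO 2 it had 6 and 2, and without Lyl1 KO 3 it had 7 and 2. Against Scl KO, 4 were higher and 1 lower, beside 8.37% and 10.8% over all genes, so the share called higher is near that of all genes and the share called lower is below it. These were Polg2, a subunit of the mitochondrial DNA polymerase (1.16 ± 0.35, adjusted p = 0.0396), Grsf1, an RNA-binding protein of mitochondrial RNA granules (0.36 ± 0.11, adjusted p = 0.0407), Tfam (0.55 ± 0.18, adjusted p = 0.0469), Polrmt (0.60 ± 0.19, adjusted p = 0.0493) and Rexo2 (-0.62 ± 0.10, adjusted p = 0.00154). With the replicate number as a block these counts were 8 and 1. They were 0 and 1 without Scl KO 1, 1 and 2 without double KO 1, and 1 and 1 without Scl KO 2, double KO 2 or double KO 3.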

How the data were processed

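RNA sequencing was done on 12 libraries in 4 groups of 3, grouped by the genotype in the labels. The values deposited by the authors are raw counts of reads for 49671 genes in a single table. The submitters' processing notes name GRCm38, STAR 2.5.2b, featureCounts of Subread 1.5.2 and limma. According to the command in the header, counting used Ensembl release 87 models and the reverse strand, and neither reads that map to several places nor reads that overlap several genes were switched on. Per the labels, the libraries were made with a stranded mRNA kit.

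The deposited counts entered edgeR 4.0.16 (R 4.3.3). Its filterByExpr by group, with a minimum count of 10 and a minimum total of 15, kept 15399 genes. TMM factors set the library sizes. The quasi-likelihood F-test with robust estimation was run in 1 fit of 12 libraries with group as the only term. Adjusted p-values are Benjamini-Hochberg values over all genes tested, and a gene is called at an adjusted p under 0.05. The test was checked on simulated data, where small changes were often missed. Gene symbols were matched by identifier for 49326 genes.

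The members and gene lists were chosen with earlier results of these data known. All 15 protein-coding and rRNA genes are named, tRNA genes that passed the filter, up to 4 called members of each nuclear list per comparison with the smallest adjusted p, and Polrmt, Tfam, Lrpprc and Slirp. A gene that this rule selects is not reported here. Exact permutation tests of the shares and ratios had been planned and are not reported, since these are sums over the members. Such values are given without a test.

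Deviations from the group means correlated between same-numbered libraries by 0.216, 0.15 and 0.441 for Scl KO and the double KO, which passed the rule for pairing (every pair over 0.1). Unlike-numbered libraries of these 2 groups correlated as well, by 0.2315 for Scl KO 2 with double KO 1 and 0.1516 for Scl KO 1 with double KO 2. The rule thus does not show pairing by number. No other comparison between groups passed it, and the labels give the numbers no further meaning. Total counts lay between 24324685 and 29212443 per library. Within a group, replicate libraries differed by a chi-square of 8.79 to 122 per gene, so none was counted as a duplicate. Alternatives were DESeq2 size factors and its Wald test (DESeq2 1.42.0), limma-voom (limma 3.58.1), other filters, scaling without chromosome MT, the replicate number as a block, each library left out, and the compared libraries alone. Scaling by library totals without TMM factors was added after the data were seen. Transcript sequences are those of GENCODE M21 on GRCm38, and sequences were compared at a minimum of 50 matched bases and 95% identity.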

Additional observations from a re-analysis of the deposited data

Results flagged for a closer look

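The interaction is the log2 effect of the Lyl1 KO on the Scl KO background minus that on the wild-type background. It was called lower for 3 nuclear genes (edgeR, adjusted p under 0.05), 1 of the 41 tested expression-machinery genes and 2 of the 71 subunits, beside 3.51% called higher and 5.86% called lower over all genes, so neither list stands above that share. These were Rexo2, with a difference of -0.77 ± 0.14 (adjusted p = 0.00784), Ndufs4, with -0.63 ± 0.14 (adjusted p = 0.016), and Cox5a, with -0.59 ± 0.14 (adjusted p = 0.0198). Rexo2 was at 187 ± 14.04 CPM in wild type, 207 ± 9.66 in Lyl1 KO, 174 ± 2.22 in Scl KO and 113 ± 13.9 in the double KO. Of 21 alternatives the call held in 20 for Rexo2, 18 for Ndufs4 and 17 for Cox5a. All 3 lost it with library totals without TMM factors (-0.42, -0.28 and -0.24), Ndufs4 also without Lyl1 KO 1 or Lyl1 KO 3, and Cox5a without Lyl1 KO 1, Scl KO 1 or Scl KO 2. The highest adjusted p over these alternatives was 0.0507 for Rexo2, 0.166 for Ndufs4 and 0.205 for Cox5a. What underlies these differences was not tested.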

How the results depend on the processing

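Of 101 recounts of called mitochondrial genes under another setting, 79 stayed within 1.5 times the reported count. A count of 0 that stayed at 0 was included in these. The reported count was 0 in both single KOs, in double KO against Scl KO and in the interaction. The 79 therefore say little about the comparisons with calls. In double KO against wild type 3 genes were called, and 6 with the replicate block, 6 with library totals without TMM factors, 5 with DESeq2's Wald test, 0 in the 6 libraries alone and 0 to 5 with 1 library left out (0 without wild type 2 or double KO 3, 1 without wild type 1, 5 without wild type 3). In double KO against Lyl1 KO 4 were called, and 2 with no filter on low counts, 7 with the replicate block, 9 with library totals, 1 in the 6 libraries alone and 0 to 5 with 1 library left out (0 without Lyl1 KO 1, 2 without Lyl1 KO 2 or Lyl1 KO 3, 1 without double KO 3). In double KO against Scl KO 0 were called, and 1 with the replicate block and 3 with library totals. For the interaction 0 were called, and 1 with library totals, 1 with DESeq2's Wald test and 0 to 1 with 1 library left out (1 without Scl KO 3 or double KO 1). With a denominator of TMM effective size the log2 difference in mitochondrial share was 0.22 for double KO against wild type, 0.13 against Scl KO and 0.17 against Lyl1 KO, in place of 0.63, 0.43 and 0.63. Outside Scl KO with double KO, same-numbered libraries correlated by -0.043 at the lowest and 0.361 at the highest (wild type 3 with Scl KO 3). Wild type 3 with double KO 3 correlated by 0.236. Over all group pairs the median was 0.1233 for same-numbered and -0.0757 for unlike-numbered libraries. Unlike-numbered libraries could also correlate there, as wild type 2 with Scl KO 1 did by 0.2102. What the number stands for was not tested, and it is not shown to mark pairs there. Between Scl KO and double KO, unlike-numbered libraries 1 and 2 also correlated, so the block is not shown to be a pairing there either. Ptcd2 in double KO against Lyl1 KO turned to 0.13 with library totals. Where a call changed and the scaling or number of libraries did not make it so by construction, the cause was not tested. Low depth limits mt-Nd6, mt-Tw and mt-Tt, and a count of 0 in a library allows up to 0.0936 to 0.131 CPM of uniquely placed reads.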
